A study of Mus musculus with 18 samples.

Results

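The 9 receptor genes Xcr1, Ccr2, Ccr6, Ccr7, Ccr9, Cx3cr1, Cxcr3, Cxcr4 and Gpr183 guide the migration of dendritic cells. They were chosen as a list of gene symbols, and all 9 were found among the 15219 genes listed in every raw count table. RNA was sequenced from 3 subsets sorted from mouse spleen, the conventional dendritic cells cDC1 and cDC2 and the plasmacytoid dendritic cells (pDC). The labels give 6 samples for each subset, 3 from HDAC1 Mx1-Cre mice and 3 from HDAC1 floxed mice. Both genotypes received PolyI/C, and cells were sorted 2 weeks later. Mx1-Cre is a recombinase under an interferon-inducible promoter that is active in many cell types, so recombination is not limited to dendritic cells. Each count table is named for a subset and holds 6 columns, called libraries here. Their codes match no sample label, and the subset of a library is therefore taken from its table. No library could be given a genotype, and HDAC1 Mx1-Cre and floxed mice were not compared. The spread within a subset includes any effect of genotype, and whether libraries of different subsets came from the same mouse is not known.

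Chemokine receptors are G protein-coupled receptors that steer leukocytes along gradients of small secreted proteins. In the spleen, such receptors place dendritic cells in the marginal zone, the bridging channels or the T cell zone, and in other organs they direct them into lymph vessels. XCR1 is the receptor that defines cDC1 and binds the chemokine XCL1, which is made by natural killer cells and CD8 T cells. GPR183 is not a chemokine receptor in the strict sense. It binds oxysterols, oxidised cholesterol derivatives, and positions cDC2 at the edge of the splenic T cell zone.

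Library totals ran from 23530860 to 37105002 counts. Levels are given as CPM, the count scaled to 1000000 counts of a library's total, and differences as log2 fold changes with standard errors (SE) from edgeR's quasi-likelihood test over 13539 genes, with Benjamini-Hochberg adjusted p. The labelled subsets were checked against markers. All 10 cDC1 markers were higher in cDC1 than in cDC2, 9 of 10 cDC2 markers were lower in cDC1 than in cDC2, and all 10 pDC markers were lower in both conventional subsets than in pDC. Of all genes tested, 24.8% were higher and 25.7% lower in cDC1 than in cDC2. Against pDC, 34.3% were higher and 32.1% lower in cDC1, and 32.2% higher and 32.0% lower in cDC2. Of the cDC1 list, Irf8 was lower in cDC1 than in pDC, with medians of 1662 and 4445 CPM. Of the 10 cDC2 markers, 5 were higher and 3 lower in cDC2 than in pDC, and their summed level had medians of 1428 CPM in cDC2 and 2071 CPM in pDC. The 3 lower were Cd209a with medians of 389 CPM in cDC2 and 1080 CPM in pDC, Clec10a with 17.2 and 408 CPM, and Cd4 with 133 and 268 CPM. Clec4a4, with 308 CPM in cDC2 and 0.0577 CPM in pDC, and Esam, with 63.9 and 0.415 CPM, were among the higher. Haemoglobin and other erythroid markers were present throughout, with summed levels of 3265 to 8904 CPM in cDC1, 3194 to 5683 CPM in cDC2 and 2335 to 6519 CPM in pDC. Summed neutrophil markers were 300.2 to 1173 CPM in cDC1, 27.9 to 156 CPM in cDC2 and 12.5 to 307 CPM in pDC. The basophil and mast cell list summed to at most 32.0 CPM in any library.

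The receptors divided the subsets sharply. Xcr1 was almost confined to the cDC1 libraries, Ccr7 to cDC1 and cDC2, and Ccr9 to pDC, while the log2 fold changes of Cxcr4 stayed between -0.55 and 0.52. In cDC1 over cDC2, 8 of the 9 receptors passed the test, 4 higher and 4 lower, where 50.5% of all genes passed it, 24.8% higher and 25.7% lower. In cDC1 over pDC 7 passed, 3 higher and 4 lower, against 66.4% of all genes, 34.3% higher and 32.1% lower. In cDC2 over pDC 8 passed, 5 higher and 3 lower, against 64.1% of all genes, 32.2% higher and 32.0% lower. With a further requirement of at least 2-fold, 7 receptors were called in cDC1 over cDC2, 4 higher and 3 lower, where 17.7% of all genes were called, 8.12% higher and 9.61% lower. In cDC1 over pDC 6 were called, 3 higher and 3 lower, against 30.3% of all genes, 17.2% higher and 13.1% lower. In cDC2 over pDC 6 were called, 3 higher and 3 lower, against 30.0% of all genes, 17.4% higher and 12.6% lower. Gpr183, at 0.99 on the log2 scale, lay just short of 2-fold there. It passed 2-fold with those subsets alone (1.003) and in 4 of 18 fits that each left out a library, which makes 4 higher. The median absolute log2 fold change over the 9 receptors was 2.08, 2.85 and 2.92, beside 0.37, 0.57 and 0.54 over all genes tested. Xcr1 is among those called in each comparison and enters these medians, although its protein set the gates of cDC1 and cDC2. These receptors were picked with their subset patterns known, so the counts describe them and do not set them apart from other genes. All 9 passed the filter on low counts.

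Among all genes, 51.7% of those called in cDC1 over pDC were higher in cDC1, and 50.1% of those called in cDC2 over pDC were higher in cDC2. With library totals as the sole scaling, these shares were 38.6% and 37.3%. The median log2 fold change of all genes then moved to -0.17 and -0.20, against 0.04 and 0.01 with TMM scaling.

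**Figure D1:**
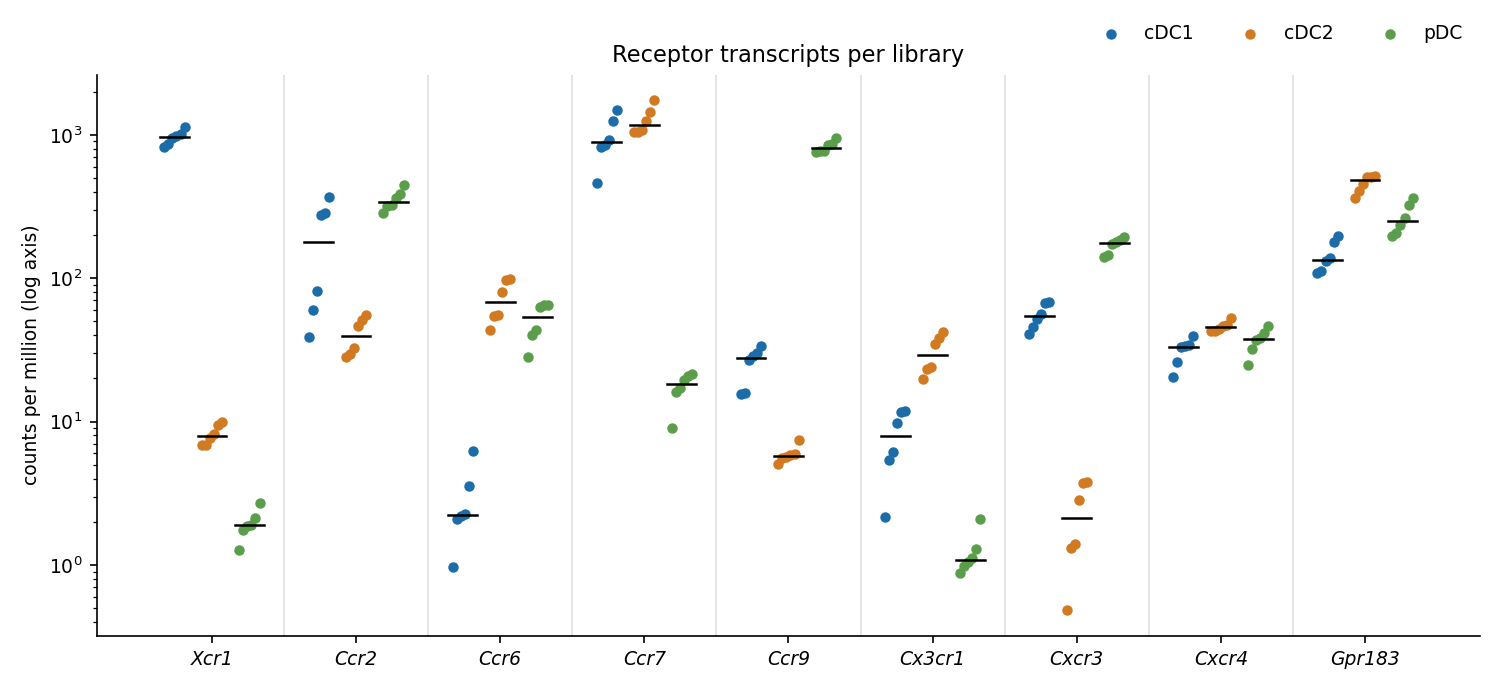
CPM of each receptor (log axis) in each library of cDC1 (blue), cDC2 (orange) and pDC (green), with points ordered from low to high and a bar at the median of 6 libraries. Xcr1 lies between 821 and 1141 CPM in cDC1 and below 10 CPM elsewhere, and the cDC1 libraries of Ccr2 spread from 39.1 to 369 CPM.

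Xcr1 had a lowest, median and highest level of 821, 966 and 1141 CPM in cDC1, 6.82, 7.996 and 9.90 CPM in cDC2, and 1.27, 1.89 and 2.71 CPM in pDC. The ranges did not overlap between any pair of subsets. The protein was part of the sort, which kept XCR1-positive cells as cDC1 and XCR1-negative cells as cDC2. These levels are therefore a check of the subset names. Xcr1 was tested and counted with the other receptors, but no p-value is quoted for it. The log2 fold change was 6.88 ± 0.15 (SE) for cDC1 over cDC2, 9.16 ± 0.17 for cDC1 over pDC and 2.28 ± 0.14 for cDC2 over pDC. In sorted bulk RNA, fewer cells that carry a transcript and less of it per cell cannot be told apart, so the few CPM in cDC2 and pDC cannot be assigned to either. The median raw counts behind them were 235 in cDC2 and 54 in pDC, and 27933 in cDC1.

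Ccr7, the receptor for CCL19 and CCL21 that carries activated dendritic cells into T cell zones, was abundant in both conventional subsets. It had a lowest, median and highest level of 458, 885 and 1502 CPM in cDC1, 1053, 1172 and 1746 CPM in cDC2, and 9.02, 18.4 and 21.5 CPM in pDC. The cDC1 and cDC2 ranges overlapped, and both lay far above pDC. The log2 fold change was 6.03 ± 0.28 for cDC1 over pDC (adjusted p = 1.6e-13) and 6.40 ± 0.29 for cDC2 over pDC (adjusted p = 7.7e-14). For cDC1 over cDC2 it was -0.38 ± 0.23 and did not pass the test (adjusted p = 0.179).

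Genes that accompany Ccr7 in maturing dendritic cells followed the same division, on a list chosen with earlier results of these data known. Its counts therefore describe the list and are no independent support for the pattern of Ccr7. All 16 genes on a list of maturation genes were higher in cDC1 than in pDC and all 16 were higher in cDC2 than in pDC, with median log2 fold changes of 5.42 and 5.09, beside 0.04 and 0.01 over all genes tested, of which 34.3% and 32.2% were higher. Cd83, a maturation marker, had medians of 2945 CPM in cDC1, 3066 CPM in cDC2 and 39.9 CPM in pDC. Ccl5, a chemokine gene, had medians of 265 CPM in cDC1, 465 CPM in cDC2 and 2.76 CPM in pDC, with log2 fold changes against pDC of 7.16 ± 0.55 in cDC1 (adjusted p = 4.4e-10) and 7.71 ± 0.57 in cDC2 (adjusted p = 1.9e-10). Apol7c, an apolipoprotein L family gene, had medians of 1069, 276 and 0.831 CPM in the same order. Between the conventional subsets 5 of the 16 were higher and 5 lower in cDC1, near the shares of all genes, of which 24.8% were higher and 25.7% lower. Ccl22, a chemokine of mature dendritic cells, was higher in cDC1 (log2 fold change 2.35 ± 0.31, adjusted p = 2.6e-06), as were Apol7c (2.08 ± 0.31, adjusted p = 1.0e-05) and Il15ra (1.60 ± 0.19, adjusted p = 4.8e-07), which encodes the interleukin-15 receptor alpha chain. The NF-kB subunit gene Relb was lower in cDC1 than in cDC2 (-1.30 ± 0.15, adjusted p = 5.1e-07).

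Gpr183 was present in all subsets and highest in cDC2. Its lowest, median and highest levels were 109, 135 and 198 CPM in cDC1, 365, 481 and 520 CPM in cDC2, and 195, 250 and 363 CPM in pDC. The cDC2 libraries lay above all others, while the cDC1 and pDC ranges met at their edges. Log2 fold changes were -1.65 ± 0.18 for cDC1 over cDC2 (adjusted p = 1.3e-07), -0.66 ± 0.17 for cDC1 over pDC (adjusted p = 0.0021) and 0.99 ± 0.17 for cDC2 over pDC (adjusted p = 4.0e-05). The order cDC2, pDC, cDC1 thus held at each step.

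Ccr9 and Cxcr3 were both highest in pDC and lowest in cDC2. Ccr9, the receptor for CCL25 that guides cells to the small intestine and thymus, had a lowest, median and highest level of 15.5, 27.9 and 33.5 CPM in cDC1, 5.10, 5.75 and 7.39 CPM in cDC2, and 755, 809 and 943 CPM in pDC. None of the ranges overlapped. Its log2 fold change was 2.08 ± 0.15 for cDC1 over cDC2 (adjusted p = 5.7e-10), -4.84 ± 0.16 for cDC1 over pDC (adjusted p = 9.2e-16) and -6.92 ± 0.18 for cDC2 over pDC (adjusted p = 2.0e-17). Exons of Ccr9 overlap those of Slc6a20a on the opposite strand, and no source states whether counting used strand. It also shares 18.2% of its 31-base words with AC165425.1, which is not listed in the tables. Slc6a20a itself had medians of 2.27, 2.01 and 0.151 CPM in cDC1, cDC2 and pDC.

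Cxcr3, which binds the interferon-induced chemokines CXCL9, CXCL10 and CXCL11, had a lowest, median and highest level of 40.5, 54.3 and 68.1 CPM in cDC1, 0.484, 2.11 and 3.82 CPM in cDC2, and 140, 175 and 194 CPM in pDC. Again no ranges overlapped. Its log2 fold change was 4.62 ± 0.29 for cDC1 over cDC2 (adjusted p = 5.4e-11), -1.41 ± 0.24 for cDC1 over pDC (adjusted p = 2.5e-05) and -6.03 ± 0.30 for cDC2 over pDC (adjusted p = 4.2e-13). T cells also carry CXCR3, and Cd3e, a T cell receptor subunit, had medians of 1.30, 0.473 and 0.375 CPM in cDC1, cDC2 and pDC. The T cell list had 7 of its 8 genes listed. Its summed level was 32.2 to 79.99 CPM in cDC1, 13.96 to 24.3 CPM in cDC2 and 316 to 969 CPM in pDC, where Cd8b1, a CD8 chain, made up most of it with a median of 789 CPM. The part of T cell RNA in Cxcr3 was not tested.

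The promoter sequences of these receptors are shown because they differ in subset while sharing a family. They were picked with the levels known. Each line is the 250 bases before the start site on GRCm38.p6 from RefSeq, read 5′ to 3′ on the gene's strand, with capitals marking the motif matches described after them. Xcr1 is read from chr9:123862030-123862279 on the minus strand, Ccr9 from chr9:123766961-123767210 on the plus strand, Cxcr3 from chrX:101734148-101734397 on the minus strand and Cx3cr1 from chr9:120068297-120068546 on the minus strand.
Xcr1: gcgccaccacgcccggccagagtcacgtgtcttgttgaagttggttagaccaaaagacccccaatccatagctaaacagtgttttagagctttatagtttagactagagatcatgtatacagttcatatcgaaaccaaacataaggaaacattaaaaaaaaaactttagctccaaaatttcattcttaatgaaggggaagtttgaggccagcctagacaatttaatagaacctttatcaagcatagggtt
Ccr9: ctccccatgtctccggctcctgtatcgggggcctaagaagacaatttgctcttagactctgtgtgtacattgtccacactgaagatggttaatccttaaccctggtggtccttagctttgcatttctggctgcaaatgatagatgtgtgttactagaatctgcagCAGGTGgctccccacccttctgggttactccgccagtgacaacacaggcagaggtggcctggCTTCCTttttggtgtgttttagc
Cxcr3: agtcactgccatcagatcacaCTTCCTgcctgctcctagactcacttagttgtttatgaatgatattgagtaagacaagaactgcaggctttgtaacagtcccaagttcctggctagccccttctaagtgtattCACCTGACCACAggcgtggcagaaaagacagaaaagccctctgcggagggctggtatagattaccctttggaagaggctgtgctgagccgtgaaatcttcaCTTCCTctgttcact
Cx3cr1: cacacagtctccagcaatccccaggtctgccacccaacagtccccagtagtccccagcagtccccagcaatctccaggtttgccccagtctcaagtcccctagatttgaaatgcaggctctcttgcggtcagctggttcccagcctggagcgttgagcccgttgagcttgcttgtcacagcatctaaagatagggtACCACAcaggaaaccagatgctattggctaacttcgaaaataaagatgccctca
Motifs were searched on both strands, each in a single spelling: the E-box CAGGTG, an ETS core AGGAAG, a RUNX core TGTGGT, AP-1 as TGANTCA and the composite PU.1-IRF element. The E-box lay at base -85 from the start site in Ccr9 and at -116 in Cxcr3, and 17.2% of 32851 promoter windows of this length held it. No other receptor with a promoter entry had this spelling, and Ccr7 had no entry. Other E-box spellings were not searched, and the sequences shown hold CACGTG in Xcr1 and CAGCTG in Cx3cr1. The ETS spelling AGGAAG was found in Ccr6, Ccr9 and Cxcr3, with 29.5% of all windows holding it. The shorter ETS spelling GGAA was not searched, and the Xcr1 and Cx3cr1 sequences shown also hold it. The RUNX core was found in Cx3cr1 and Cxcr3, with 14% of all windows holding it. In Cxcr3 the RUNX match begins at -110, directly after the E-box, without overlap. AP-1 and PU.1-IRF matches, held by 6.75% and 2.30% of windows, were not found in any of the receptors. Start sites are those of RefSeq, and the GENCODE M21 genes Ccr9, Cxcr3 and Cx3cr1 begin further upstream. A match says only that these letters are present.

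Ccr2, the receptor for CCL2 that releases monocytes from bone marrow, was highest in pDC and lowest in cDC2. It had a lowest, median and highest level of 39.1, 179 and 369 CPM in cDC1, 28.0, 39.6 and 55.3 CPM in cDC2, and 284, 342 and 448 CPM in pDC. The cDC1 libraries were widely spread, with the highest 9.43 times the lowest, and they overlapped both other subsets. Their median fell in a gap between libraries at 81.6 and 277 CPM. The log2 fold change was 2.20 ± 0.43 for cDC1 over cDC2 (adjusted p = 0.00023) and -2.92 ± 0.44 for cDC2 over pDC (adjusted p = 7.1e-06). For cDC1 over pDC it was -0.72 ± 0.41 and did not pass the test (adjusted p = 0.128). With library totals as the sole scaling that comparison passed, at -0.93 ± 0.40 (adjusted p = 0.0446, range over the 6 alternatives other than leave-one-out 0.0446 to 0.156). Ccr2 shares 3.48% of its 31-base words with other genes in GENCODE M21, and where its reads fell was not measured.

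Ccr6 and Cx3cr1 were highest in cDC2. Ccr6, the receptor for CCL20, had a lowest, median and highest level of 0.970, 2.23 and 6.22 CPM in cDC1, 43.7, 68.0 and 98.0 CPM in cDC2, and 28.1, 53.3 and 64.9 CPM in pDC. The cDC1 libraries lay below all others, and the cDC2 and pDC ranges overlapped. Log2 fold changes were -4.62 ± 0.36 for cDC1 over cDC2 (adjusted p = 1.7e-09) and -3.94 ± 0.36 for cDC1 over pDC (adjusted p = 4.8e-09). For cDC2 over pDC it was 0.68 ± 0.30 and narrowly missed the threshold (adjusted p = 0.0527), and it passed in 8 of 18 fits that each left out a single library. B cells also carry CCR6. Of 7 B cell genes tested, 6 were higher and 1 lower in cDC1 than in cDC2, where 24.8% of all genes were higher and 25.7% lower. In cDC1 over pDC 4 were higher and 2 lower, against 34.3% and 32.1% of all genes. Ms4a1 had medians of 82.8, 28.4 and 6.17 CPM in cDC1, cDC2 and pDC, while Cd79b had 27.0, 52.6 and 103.8 CPM. All 8 B cell genes were listed, and their summed level was 474 to 669 CPM in cDC1, 306 to 436 CPM in cDC2 and 2069 to 2296 CPM in pDC, where the immunoglobulin gene Ighm made up most of it with a median of 2120 CPM. The part of B cell RNA in Ccr6 was not tested.

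Cx3cr1, the fractalkine receptor typical of monocytes and macrophages, had a lowest, median and highest level of 2.15, 7.97 and 11.8 CPM in cDC1, 19.9, 29.2 and 42.0 CPM in cDC2, and 0.881, 1.08 and 2.08 CPM in pDC. No ranges overlapped. Log2 fold changes were -1.98 ± 0.30 for cDC1 over cDC2 (adjusted p = 1.2e-05), 2.85 ± 0.34 for cDC1 over pDC (adjusted p = 2.8e-07) and 4.83 ± 0.35 for cDC2 over pDC (adjusted p = 1.7e-10). Of 10 monocyte and macrophage markers, 8 were lower and 0 higher in cDC1 than in cDC2, where 25.7% of all genes were lower and 24.8% higher. All 10 were higher in cDC1 than in pDC and all 10 were higher in cDC2 than in pDC, against 34.3% and 32.2% of all genes. Vcam1 and Vcan did not pass in cDC1 over cDC2, with log2 fold changes of -0.17 ± 0.31 (adjusted p = 0.692) and 0.65 ± 0.34 (adjusted p = 0.118). The summed level of the 10 was 948 to 2263 CPM in cDC1, 3209 to 10290 CPM in cDC2 and 38.1 to 119 CPM in pDC. Most of it was the lysozyme gene Lyz2, with medians of 1256, 3911 and 25.7 CPM. Fcgr1, which encodes the CD64 that the gate excluded, had medians of 0.396, 3.16 and 0.0521 CPM. The part of monocyte or macrophage RNA in Cx3cr1 and Ccr2 was not tested.

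Cxcr4, the receptor for CXCL12 that retains cells in bone marrow and is found on most leukocytes, differed little. It had a lowest, median and highest level of 20.3, 33.3 and 39.2 CPM in cDC1, 42.6, 45.3 and 52.6 CPM in cDC2, and 24.8, 37.8 and 46.2 CPM in pDC. The cDC2 libraries lay above all cDC1 libraries, and pDC overlapped both. The log2 fold change was -0.55 ± 0.16 for cDC1 over cDC2 (adjusted p = 0.0064) and 0.52 ± 0.16 for cDC2 over pDC (adjusted p = 0.0064). With library totals as the sole scaling the second was 0.32 ± 0.14 and did not pass (adjusted p = 0.0518, range over the 6 alternatives other than leave-one-out 0.0023 to 0.0518). For cDC1 over pDC it was -0.02 ± 0.16 (adjusted p = 0.899).

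**Figure D2:**
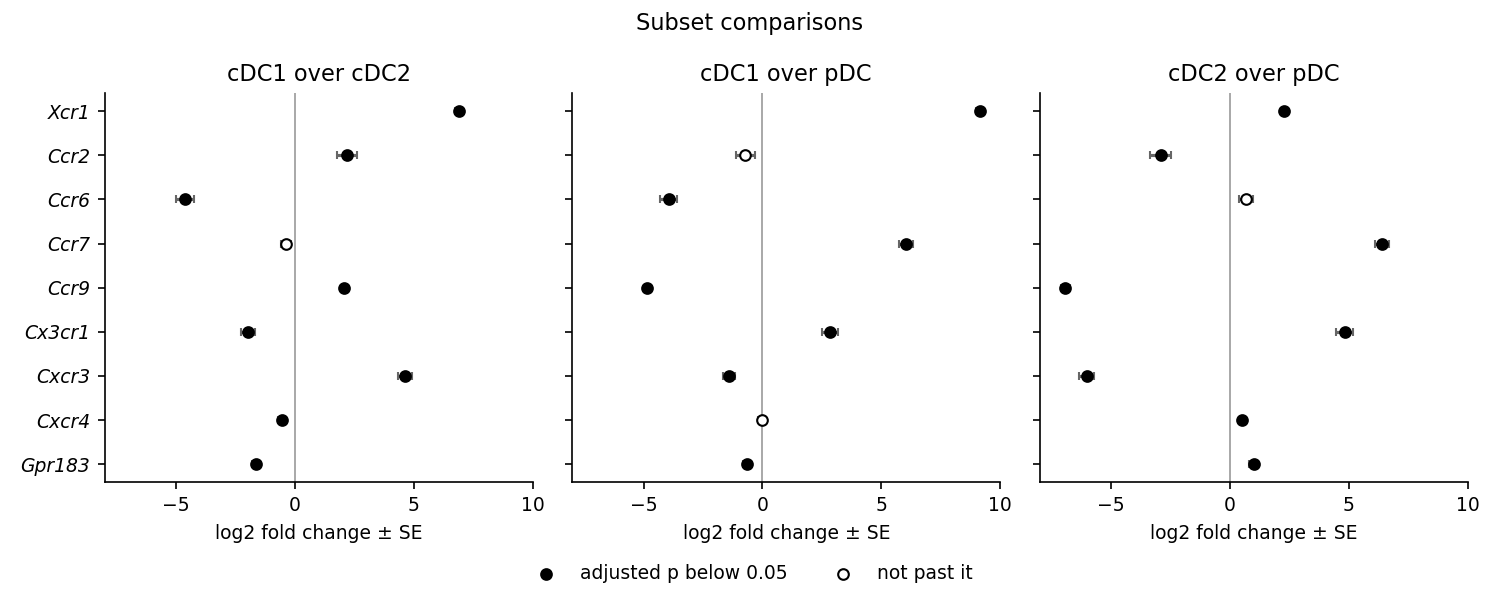
Log2 fold change of each receptor in the 3 subset comparisons, with bars of 1 SE from edgeR and filled points for an adjusted p below 0.05, which for Xcr1 is no finding because its protein set the gates of cDC1 and cDC2. Cxcr4 lies between -0.55 and 0.52 in the 3 comparisons, and Xcr1 reaches 9.16 in cDC1 over pDC.

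Per-library ranges were separate for 7 of 9 receptors between cDC1 and cDC2, for 6 between cDC1 and pDC and for 7 between cDC2 and pDC, where 27.1%, 44.7% and 51.5% of all genes tested had separate ranges. Xcr1 is counted in each comparison, although its protein set the gates of cDC1 and cDC2. The receptors were picked with their subset patterns known, so these counts only describe them.

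Levels of different receptors were compared as CPM per kilobase of the longest principal GENCODE M21 transcript. In cDC1 the order began with Ccr7 at a median of 448 CPM per kb, Xcr1 at 217 and Gpr183 at 49.5. The ranges of Ccr7 and Xcr1 overlapped. Cxcr3 and Ccr2, next in order at 31.4 and 31.3 CPM per kb, overlapped with each other, and Ccr2 with Gpr183. The Ccr2 median there fell in a gap between libraries at 81.6 and 277 CPM, so its place is uncertain. In cDC2 Ccr7 led with 592 CPM per kb, followed by Gpr183 with 176 and Ccr6 with 38.7, whose range overlapped that of Cxcr4 at 25.1. The medians of Xcr1, Cxcr3 and Ccr9 there were all below 2 CPM per kb. In pDC Ccr9 led with 156 CPM per kb. Cxcr3 with 101 and Gpr183 with 91.8 overlapped behind it, followed by Ccr2 with 59.8, whose range overlapped that of Gpr183. The place of Ccr9 in pDC depends on the length used: with the merged length of all annotated exons it had 78.9 CPM per kb, at rank 3 behind Cxcr3 and Gpr183. Ccr2 and Cx3cr1 in cDC2 also changed places with that length. The sum of the 9 receptors had a median of 2440 CPM in cDC1, 1880 CPM in cDC2 and 1745 CPM in pDC.

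**Figure D3:**
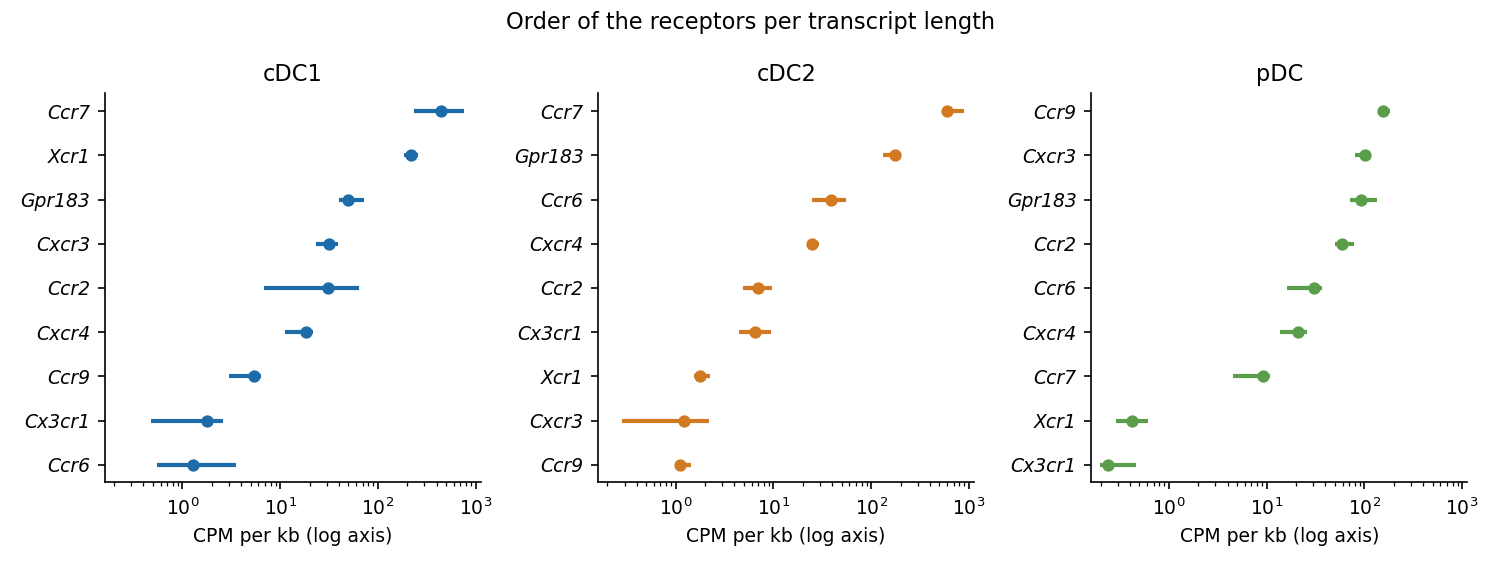
Median level (point) and range over 6 libraries (line) of each receptor in CPM per kb of transcript on a log axis, ordered within each subset. Ccr7 leads in cDC1 and cDC2, and Ccr9 in pDC.

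The genes most like each receptor over the 18 libraries were found by Pearson's r of log2(CPM + 1) among 8714 genes. Since libraries of a subset share a table and lie together, r mainly reflects the subset means and is a description. Nearest to Xcr1 were Naaa (r = 0.996), an acid amidase gene, and Hepacam2 (r = 0.993). Nearest to Ccr7 were Asap1 (r = 0.992) and the survival gene Bcl2a1a (r = 0.992), and nearest to Ccr9 were Slc52a3 (r = 0.995), a riboflavin transporter gene, and Ppm1h (r = 0.995). Casp1 and Apbb1ip were nearest to Ccr6 (r = 0.979 and 0.971), Gfra2 and Ms4a6b to Cx3cr1 (r = 0.976 each), and Nek6 and Cpne2 to Cxcr3 (r = 0.993 and 0.991). Likeness was weaker for Gpr183, with Smad7 at r = 0.957 and Ctsc at r = 0.944, and for Ccr2, with Cldnd1 at r = 0.924 and Cmtm6 at r = 0.921. For Cxcr4 the nearest was Gpr183 itself at r = 0.791, followed by Irs2 at r = 0.784.

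Of 17 further receptors of the family, 10 could be tested. In cDC1 over cDC2, 2 were higher and 2 lower, in cDC1 over pDC 5 were higher and 3 lower, and in cDC2 over pDC 3 were higher and 3 lower, so that 4, 8 and 6 of the 10 passed where 50.5%, 66.4% and 64.1% of all genes did. Ccrl2, a receptor that presents chemerin without signalling, had medians of 45.7 CPM in cDC1, 412 CPM in cDC2 and 2.14 CPM in pDC. Its log2 fold change was -2.97 ± 0.13 for cDC1 over cDC2 (adjusted p = 3.8e-13), 4.67 ± 0.16 for cDC1 over pDC (adjusted p = 8.7e-16) and 7.64 ± 0.17 for cDC2 over pDC (adjusted p = 3.7e-18). Cmklr1 also passed in every comparison, and Cxcr6 and Ackr1 in some, with no subset median above 2.13 CPM for these genes.

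Several of these genes are neighbours. In GENCODE M21 on GRCm38, Ccr9, Xcr1 and Ccr2 lie close together on chromosome 9. Ccr9 spans chr9:123678439-123784330 on the plus strand, Xcr1 chr9:123852315-123862029 on the minus strand and Ccr2 chr9:124101950-124113557 on the plus strand. Of these 3 genes, Xcr1 was highest in cDC1, and Ccr9 and Ccr2 were highest in pDC by median.

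Ligands of the receptors were examined together with enzymes that make or break down oxysterols. Of 12 that could be tested out of 16, 7 were higher and 0 lower in cDC1 than in cDC2, 8 were higher and 0 lower in cDC1 than in pDC, and 6 were higher and 3 lower in cDC2 than in pDC, where 50.5%, 66.4% and 64.1% of all genes passed in these comparisons. The list's median log2 fold change was 1.03, 1.84 and 0.58, beside 0.01, 0.04 and 0.01 over all genes. Cxcl9, a ligand of CXCR3, had medians of 466.07 CPM in cDC1, 52.8 CPM in cDC2 and 0.448 CPM in pDC, the reverse end from Cxcr3 for pDC. Its log2 fold change was 3.04 ± 0.23 for cDC1 over cDC2 (adjusted p = 8.8e-10) and 9.88 ± 0.33 for cDC1 over pDC (adjusted p = 1.0e-15). Cxcl10, another CXCR3 ligand, had medians of 78.6, 86.6 and 5.90 CPM. Xcl1, the ligand of XCR1, had medians of 5.38, 0.537 and 1.84 CPM and was higher in cDC1 than in cDC2 (3.12 ± 0.52, adjusted p = 4.0e-05). Of 6 natural killer cell markers tested, 5 passed at 2-fold or more higher in cDC1 than in cDC2, where 8.12% of all genes did. In cDC1 over pDC 5 did so, against 17.2% of all genes. Ncr1 was at 4.32 ± 0.65 (adjusted p = 1.3e-05) and 3.36 ± 0.59 (adjusted p = 4.3e-05). Klre1 was lower in cDC1 than in cDC2 (-0.46 ± 0.18, adjusted p = 0.034). In cDC2 over pDC Xcl1 was lower (-1.38 ± 0.51, adjusted p = 0.024), while 0 of the 6 markers passed. Their list summed to 22.2 to 28.2 CPM in cDC1, 7.15 to 16.2 CPM in cDC2 and 8.79 to 15.0 CPM in pDC, and its part in Xcl1 was not tested. Hsd3b7, an enzyme that breaks down GPR183 ligands, had medians of 79.6, 26.4 and 28.4 CPM. It was higher in cDC1 than in cDC2 (1.59 ± 0.11, adjusted p = 3.0e-10), the opposite direction to Gpr183 in that comparison. For cDC2 over pDC it did not pass (0.09 ± 0.11, adjusted p = 0.514). Cyp7b1, which also acts on oxysterols, had medians of 4.66, 1.36 and 6.86 CPM and was higher in cDC1 than in cDC2 (2.23 ± 0.33, adjusted p = 1.1e-05). Cxcl11, the remaining CXCR3 ligand here, had medians of 4.13, 2.10 and 0.209 CPM. Ccl2 was listed at 2.56 to 7.23 CPM in cDC1, 2.15 to 4.76 CPM in cDC2 and 0 to 0.149 CPM in pDC.

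**Figure D4:**
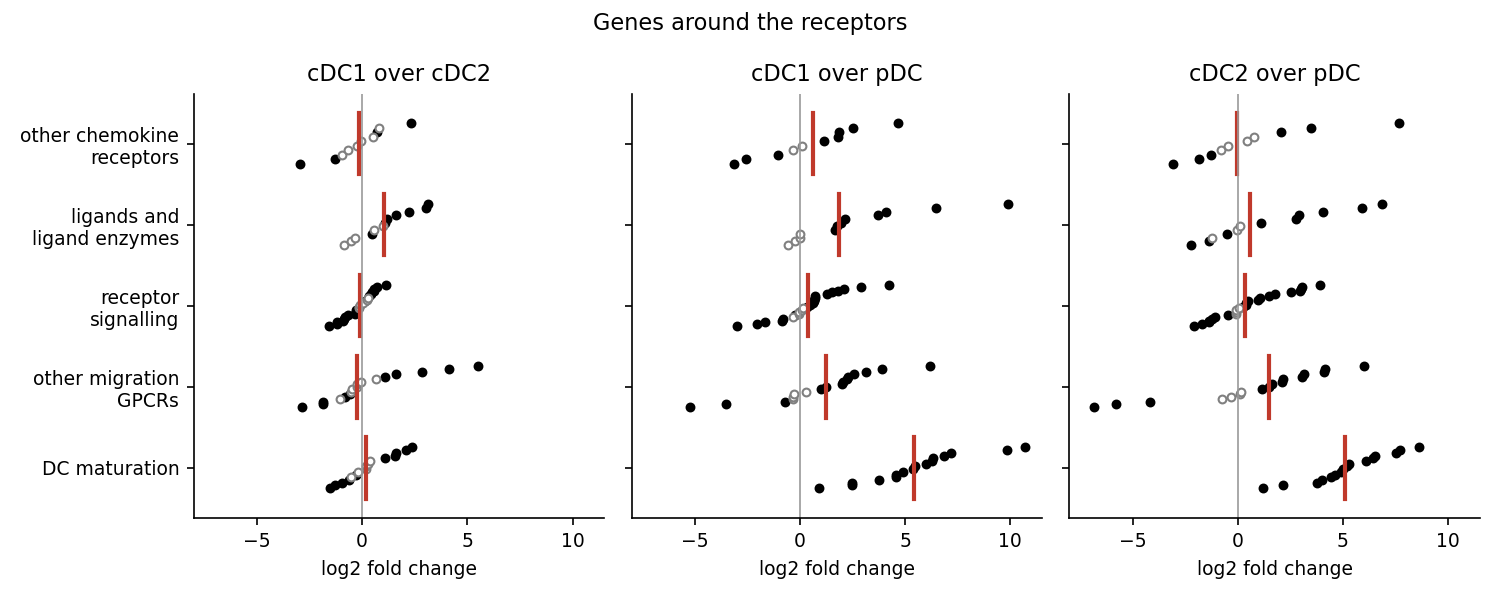
Log2 fold changes of genes on 5 lists around the receptors in the 3 comparisons, with filled points for an adjusted p below 0.05, open points for the rest and a red line at the list's median. The 16 maturation genes lie to the right of 0 against pDC, with medians of 5.42 in cDC1 over pDC and 5.09 in cDC2 over pDC.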

How the data were processed

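RNA from sorted splenic cDC1, cDC2 and pDC was sequenced from libraries made with a SMARTER mRNA-seq kit, per the labels' protocols. kallisto, DESeq2 and GRCm38 are listed, with neither roles nor versions, per the submitters' processing notes, and the annotation and strand setting are not given in the sources used here. The deposited raw tables hold whole-number counts per gene symbol, and the lowest row sum over 6 libraries is 10. The 18 value columns of the normalized tables were scaled within each subset and were not used. The 18 raw columns carry codes that match no sample label. Their subset was taken from the table's name, and no genotype was assigned.

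Genes listed in all 3 tables were filtered with filterByExpr, scaled by TMM and fitted in edgeR 4.0.16 (R 4.3.3) with subset as the sole term, followed by quasi-likelihood tests and Benjamini-Hochberg adjustment. The SE is the log2 fold change divided by the square root of the F statistic. Alternatives used DESeq2 1.42.0, RLE factors, library totals, no filter, genes of any table, each pair of subsets alone and 18 fits that left out a library each. Libraries of a subset differed by more than sampling noise, with chi-square per degree of freedom of 10.0 or more in every pair. Where no label shows separate animals, p-values measure the spread between libraries.

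Members, lists, motifs and the promoters shown were chosen with earlier results of these data known. The per-kb length was changed from merged exons to the principal transcript after levels were seen. A first motif search that ran past the start site also held ETS or RUNX matches in Xcr1, Ccr6 and Cxcr3, which are not reported. Named genes are all 9 receptors, the 2 genes most like each (at least 10 CPM in a subset), and from each list the 3 with the largest fold change per comparison among genes called at 2-fold or more. Cd83, Relb, Hsd3b7, Slc6a20a and the genes named from marker lists were named after their values were seen. A gene that the rule names is not reported here.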

Additional observations from a re-analysis of the deposited data

Results flagged for a closer look

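Cx3cr1 in pDC had a highest library at 2.08 CPM, set apart from the next at 1.29 CPM. The gap was 0.656 of the range over the 6 libraries, above the critical value of 0.625. This was the single flag among 27 sets of 6 libraries, and chance gives about 1 in 20. The raw counts of Cx3cr1 in pDC ran from 24 to 56.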

How the results depend on the processing

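Counts of called genes stayed within 1.5 times the main count in all 36 values under the 6 alternatives other than leave-one-out and in all 108 leave-one-out values. Receptor fold changes under those 6 alternatives kept their direction and side of the threshold with 3 exceptions. These were Ccr2 in cDC1 over pDC (-0.93, adjusted p = 0.0446) and Cxcr4 in cDC2 over pDC (0.32, adjusted p = 0.0518), both with library totals as the sole scaling, and Ccr6 in cDC2 over pDC with those subsets alone (0.69, adjusted p = 0.0208). Of 486 leave-one-out values 474 kept both. Ccr6 in cDC2 over pDC ranged from 0.55 to 0.79 and passed in 8 of 18 fits. Cxcr4 in cDC1 over pDC, which did not pass, ranged from -0.13 to 0.07, and was above 0 at 0.072, 0.025, 0.071 and 0.017 in 4 fits. The cause was not tested. All 27 receptor levels moved by less than 1 SD with TMM library sizes. No paired analysis was possible because replicate numbers are absent from the column codes. With merged exon length, an alternative chosen after seeing the data, Ccr9 in pDC had 78.9 CPM per kb, against 156 with the principal transcript, and its levels in cDC1 and cDC2 also moved by more than 1 SD, while 24 levels of the other receptors did not. Depth limits the lowest levels, such as Cx3cr1 in pDC.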

Other observations

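Genes that transmit or end receptor signals were examined as a list. Of 24 tested out of 26, 8 were higher and 10 lower in cDC1 than in cDC2, 13 were higher and 6 lower in cDC1 than in pDC, and 13 were higher and 7 lower in cDC2 than in pDC. The shares of all genes that passed were 50.5%, 66.4% and 64.1%, and the list's median log2 fold change was -0.11, 0.39 and 0.33, beside 0.01, 0.04 and 0.01 over all genes. Rac2, a GTPase of leukocyte movement, had medians of 226 CPM in cDC1, 418 CPM in cDC2 and 2098 CPM in pDC, with log2 fold changes against pDC of -3.0 ± 0.12 in cDC1 (adjusted p = 1.7e-14) and -2.10 ± 0.12 in cDC2 (adjusted p = 2.6e-12). Rgs1 and Rgs2, which speed the end of G protein signals, were both lower in cDC1 than in cDC2, at -1.57 ± 0.35 (adjusted p = 0.00084) and -1.21 ± 0.18 (adjusted p = 1.2e-05), and higher in cDC2 than in pDC, at 3.08 ± 0.37 (adjusted p = 3.3e-07) and 3.004 ± 0.19 (adjusted p = 2.4e-11). Elmo1, which links receptors to Rac, was lower in cDC1 than in cDC2 (-1.22 ± 0.08, adjusted p = 1.3e-10), with medians of 97.7, 235 and 47.8 CPM in cDC1, cDC2 and pDC. The beta-arrestin gene Arrb1 was higher in cDC1 than in pDC (2.90 ± 0.18, adjusted p = 1.9e-11), with medians of 12.5, 5.99 and 2.08 CPM. The receptor kinase gene Grk5 was low throughout, with medians of 3.93, 3.37 and 0.195 CPM in cDC1, cDC2 and pDC.

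Of 17 other migration receptors tested out of 18, 5 were higher and 5 lower in cDC1 than in cDC2, where 24.8% of all genes were higher and 25.7% lower. In cDC1 over pDC 10 were higher and 3 lower, against 34.3% and 32.1% of all genes. In cDC2 over pDC 10 were higher and 3 lower, against 32.2% and 32.0% of all genes. The list's median log2 fold changes were -0.24, 1.24 and 1.48, beside 0.01, 0.04 and 0.01 over all genes. P2ry14, a receptor for UDP-sugars, had medians of 320 CPM in cDC1, 6.80 CPM in cDC2 and 454 CPM in pDC. Ltb4r1, the leukotriene B4 receptor gene, had medians of 1.55, 10.5 and 0.131 CPM, and the prostaglandin E receptor gene Ptger2 had 4.03, 0.245 and 0.0529 CPM. Gpr34, a lysophosphatidylserine receptor gene, had medians of 97.8, 123 and 8.77 CPM, and Gpr174, of the same ligand class, had 0.611, 0.215 and 27.3 CPM.

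The 6 values of Ccr2 in cDC1 were 39.1, 59.8, 81.6, 277, 283 and 369 CPM. The SD of its log2(CPM + 1) was 1.36 there, above that of 99.9% of 7391 genes at 10 CPM or more, whose median SD was 0.222. In cDC2 the values were 28.0, 29.6, 32.8, 46.4, 51.0 and 55.3 CPM, with an SD of 0.417, and in pDC the SD was 0.232. Xcr1 in cDC1 had an SD of 0.17. The libraries carry no genotype here.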
